A study of Mus musculus with 4 samples.

Results

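The miR-200 family of microRNAs was examined in activated T cells of the mouse that carried Foxp3, the lineage factor of regulatory T cells, against the same kind of cells carrying a control vector. The members were the probes whose ID, without its prefix 1org- or 2org-, was 200a, 200b or 200c or the number of miR-141 or miR-429. They were chosen from an earlier view of these same values, in which 200a, 200b and 200c stood out, so every value below is a description with no test. The value table held 4 such probes among 171 miRNA probes and 178 probes in all, and miR-429 matched no probe ID, so 1 of the 5 family names was not analysed here. The platform annotation listed 62 of the miRNA probes and none of the 4 family probes, which keep their probe IDs.

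Total RNA of the Foxp3-transduced and of the control cells was hybridised together to 2-colour arrays, with a dye-swap pair of 2 arrays at 72 h and another at 96 h. At each time the Foxp3 RNA was in Cy5 on replicate 1, called the Foxp3-Cy5 array below, and in Cy3 on replicate 2, the Foxp3-Cy3 array. Both RNAs came from activated, transduced T cells, so activation and transduction were shared by the groups. The strain, the sex and age of the mice, the T cell subset, the activating stimulus and the vector are not given in the sources used here. No label told if separate cultures were used for the times. The RNAs on the 2 arrays of a time point have the same source labels and were taken as the same RNAs. SDs between these arrays were therefore read as technical.

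The miR-200 family is best known from epithelial cells, where its members repress Zeb1 and Zeb2, transcription factors that silence E-cadherin and drive the epithelial-mesenchymal transition. Zeb1 in turn represses the genes of the family, so that miRNAs and factor hold each other down. Zeb1 is also expressed in T cells, where it is known as a repressor of the interleukin-2 gene. A miRNA recognises its targets mainly through its seed, bases 2 to 8, and the family falls into a pair of seed groups.

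The mature sequences show how near the members are to each other, which matters for reading probes that differed so much in their ratios. They are the 3p arms, which bore the plain names when such probe IDs were in use, from RefSeq on build GRCm38.p6, 5′ to 3′, with the seed in capitals. All 5 names matched, and all lie on the minus strand.
miR-200a: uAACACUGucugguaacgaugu
miR-141: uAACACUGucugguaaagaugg
miR-200b: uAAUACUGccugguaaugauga
miR-200c: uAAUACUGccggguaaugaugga
miR-429: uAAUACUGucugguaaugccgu

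miR-200a and miR-141 shared the seed AACACUG, and miR-200b, miR-200c and miR-429 the seed AAUACUG. Between the seeds, counted from 1 at the 5′ end, the change is C4U from miR-200a to miR-200b. No other mature miRNA among the 1679 names of the mouse table had either seed. miR-200a and miR-141 were identical at 20 of 22 positions and differed by C17A and U22G. miR-200b and miR-200c were also identical at 20 of 22 positions, with U11G and A22G, while miR-200a and miR-200b were identical at 18. Over these sequences 8 to 10 bases were G or C. The probe sequences were not used here, so whether 1 RNA binds several of these probes was not tested, and the probes are not independent of each other.

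By position, the members form a pair of clusters that do not follow the seeds. Mir200b, Mir200a and Mir429 lie on chromosome 4, with the mature miRNAs at chr4:156055685-156055706, chr4:156054911-156054932 and chr4:156053916-156053937, and 695 and 908 bases between neighbouring hairpins. Mir200c and Mir141 lie on chromosome 6, at chr6:124718324-124718346 and chr6:124717917-124717938, with 336 bases between their hairpins. Each cluster thus holds both seeds, and the members of a cluster are known to be transcribed together.

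The probes 1org-200a, 1org-200b and 2org-200c held the 3 highest deposited values of all 171 miRNA probes on each of the 4 arrays, whichever dye the Foxp3 RNA carried. Probe 1org-141, whose miRNA differs from miR-200a at 2 positions, was negative on 3 arrays and ranked between 20 and 153 from the highest. Deposited values are log ratios of the channels, taken as log2. They compare the 2 RNAs at 1 probe and give no level, so whether any member was above background in these T cells was not analysed here.

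Probe 1org-200a, of the chromosome 4 cluster, had a deposited log2 ratio of 2.36 with Foxp3 in Cy5 and 2.43 with Foxp3 in Cy3 at 72 h. At 96 h it had 4.67 with Foxp3 in Cy5 and 3.49 with Foxp3 in Cy3. It ranked first on both 72 h arrays and second on both 96 h arrays. In size, these ratios were 5.15-fold, 5.39-fold, 25.5-fold and 11.2-fold.

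Probe 1org-200b, its cluster neighbour with the other seed, had 2.13 with Foxp3 in Cy5 and 2.02 with Foxp3 in Cy3 at 72 h. At 96 h it had 4.65 and 3.53, in the same order of dyes. The 96 h Foxp3-Cy3 array was the 1 array on which it exceeded 1org-200a, by 0.04.

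Probe 2org-200c, of the chromosome 6 cluster, had 1.92 with Foxp3 in Cy5 and 1.60 with Foxp3 in Cy3 at 72 h. At 96 h it had 5.10, the highest value of the whole table, with Foxp3 in Cy5 and 3.10 with Foxp3 in Cy3. It was the lowest of the 3 on every array other than the one on which it was the highest.

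Probe 1org-141, which shares its cluster with 2org-200c and its seed with 1org-200a, had -1.40 with Foxp3 in Cy5 and -0.98 with Foxp3 in Cy3 at 72 h. At 96 h it had 2.86 with Foxp3 in Cy5 and -0.60 with Foxp3 in Cy3. It lay below 1org-200a on all 4 arrays, and it differed from it by -3.76 and -3.41 on the 72 h arrays and by -1.81 and -4.09 on those of 96 h. Averaged over the arrays without sign, 1org-141 and 1org-200a differed by 3.27, whereas 1org-200a and 1org-200b differed by 0.18 and 1org-200b and 2org-200c by 0.37. Neither a shared seed nor a shared cluster went with a similar ratio for 1org-141.

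**Figure D1:**
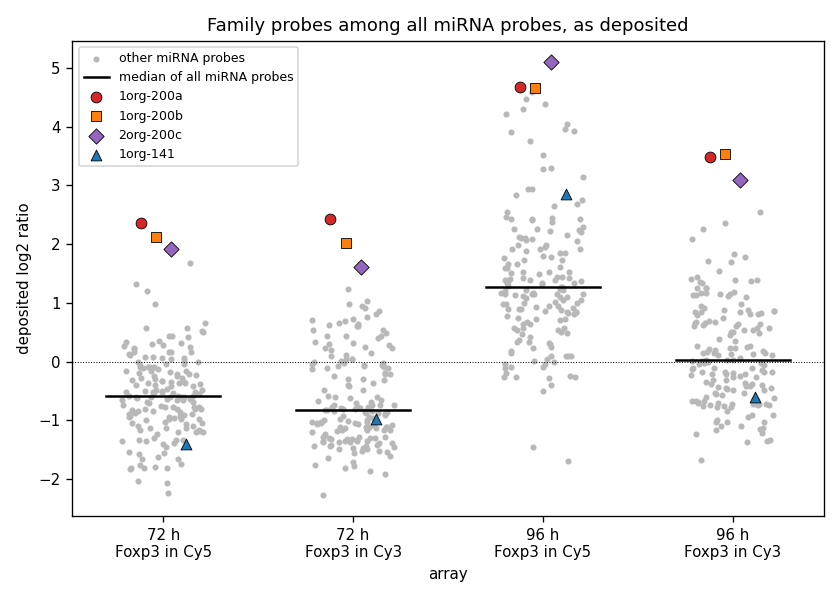
Deposited log2 ratio (y axis) of each miRNA probe on each of the 4 arrays (x axis, with the time point and the dye of the Foxp3 RNA); coloured symbols are the 4 family probes, grey points the other miRNA probes, spread sideways for visibility, and black bars the median of all miRNA probes. The 200a, 200b and 200c probes are at the top of every array, by 0.07 to 0.56 above the next probe, while 1org-141 is negative on 3 of the 4.

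The 3 high probes lay close together. Their range was 0.45 and 0.83 on the 72 h arrays and 0.45 and 0.43 on the 96 h arrays, with the Foxp3-Cy5 array first. The distance from the lowest of them to the next miRNA probe was 0.23 and 0.36 at 72 h and 0.07 and 0.56 at 96 h. The 3 are therefore barely separated from the others on the 96 h Foxp3-Cy5 array, where 2org-224 followed at 4.59, 1org-99b at 4.47 and 1org-196 at 4.39. On the remaining arrays the next probes were 1org-99b at 1.69, 1org-206 at 1.32 and 1org-155 at 1.21 (72 h, Foxp3 in Cy5), 1org-20 at 1.24, 1org-7g at 1.03 and 2org-222 at 0.98 (72 h, Foxp3 in Cy3), and 2org-222 at 2.54, 1org-99b at 2.37 and 2org-221 at 2.26 (96 h, Foxp3 in Cy3). Within a dye-swap pair, 1org-99b at 96 h was the 1 probe among the next 3 on both arrays. On the 96 h Foxp3-Cy5 array, 2org-222 and 2org-221 were instead at -1.695 and -1.452.

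The arrays differed in their centre. The median of the miRNA probes was -0.59 and -0.83 at 72 h and 1.27 and 0.02 at 96 h, and the 96 h Foxp3-Cy5 array, at 1.27, stood apart. Measured from these medians, 1org-200a was at 2.95, 3.26, 3.40 and 3.47 on the 4 arrays, 1org-200b at 2.71, 2.84, 3.39 and 3.51, and 2org-200c at 2.50, 2.43, 3.83 and 3.08. All 3 were thus at least 2.43 above the centre of every array. Probe 1org-141 was at -0.81, -0.15, 1.59 and -0.62 from the medians, above the centre on the 96 h Foxp3-Cy5 array alone. On that array it ranked 20th from the highest.

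What these values say of Foxp3 depends on the direction of the ratios, which was not settled. In the channel reading, values are Cy5 over Cy3, and the sign is turned on arrays with Foxp3 in Cy3. In the already turned reading, every value is Foxp3 over control as deposited. Over all 171 miRNA probes, the deposited values of the 2 arrays of a time point correlated at r = 0.66 at 72 h and -0.12 at 96 h, while ratios set by the samples and left unturned would give a negative r. The family weighed on these figures: without its 4 probes, over 167 probes, r was 0.58 at 72 h and -0.34 at 96 h. The rank correlations moved less, from 0.68 to 0.67 at 72 h and from -0.33 to -0.40 at 96 h. These correlations are across probes that share arrays and dyes, and carry no test.

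**Figure D2:**
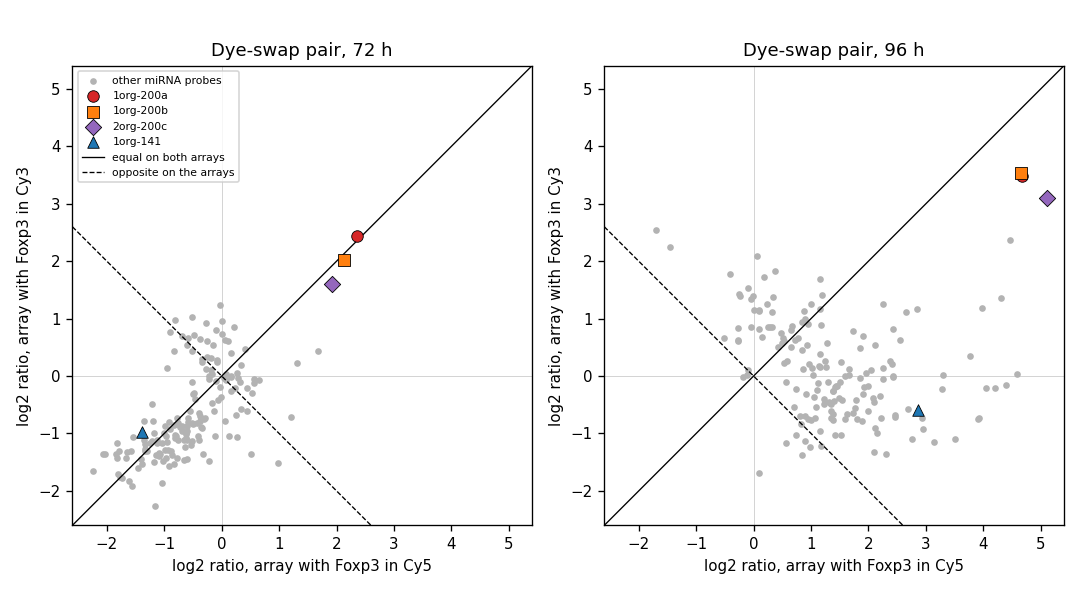
Deposited log2 ratio on the Foxp3-Cy5 array (x axis) against that on the Foxp3-Cy3 array (y axis), at 72 h (left) and 96 h (right); coloured symbols are the family probes, grey points the other miRNA probes, the solid line marks equal values and the dashed line opposite values. The 200a, 200b and 200c probes lie near the solid line at 72 h and in the upper right at 96 h, positive on both arrays each time, while 1org-141 is negative on both at 72 h and at 2.86 and -0.60 at 96 h.

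In the channel reading, the 3 high probes gave opposite answers on the arrays of each pair. At 72 h the turned ratios of 1org-200a were 2.36 and -2.43, with a mean of -0.03 ± 3.39 (SD, n = 2 arrays). Those of 1org-200b averaged 0.06 ± 2.93 and those of 2org-200c 0.16 ± 2.49. The turned ratios of 1org-141 were -1.40 and 0.98, with a mean of -0.21 ± 1.68. No member passed 1.5-fold with 1 sign on both arrays at 72 h, where 7.60% of all miRNA probes did in either direction.

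At 96 h in the same reading, 1org-141 alone passed, on the side higher with Foxp3. Its turned ratios were 2.86 and 0.60, with a mean of 1.73 ± 1.60 (SD, n = 2 arrays) or 3.31-fold, 14th of 171 from the highest. Of all miRNA probes, 46.2% passed higher in this comparison, and the median of all was 0.81, so 1 of 4 members was not above the background share. The 3 high probes again disagreed between arrays, with 4.67 and -3.49 for 1org-200a (mean 0.59 ± 5.77), 4.65 and -3.53 for 1org-200b (mean 0.56 ± 5.79) and 5.10 and -3.10 for 2org-200c (mean 1.00 ± 5.80). Each of these SDs exceeded its mean by more than 5 times, so in the channel reading these probes showed no direction. Without the 96 h Foxp3-Cy5 array, 1org-141 was at 0.60 and the others at -3.49, -3.53 and -3.10. Measured from the array medians, the 96 h mean of 1org-141 was 1.10 ± 0.69, from 1.59 and 0.62, and it still passed, like 30 of all 171 miRNA probes.

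In the already turned reading, 200a, 200b and 200c were the 3 highest probes at both times. At 72 h their means were 2.40 ± 0.05, 2.07 ± 0.08 and 1.76 ± 0.22 (SD, n = 2 arrays), or 5.27-fold, 4.20-fold and 3.39-fold higher with Foxp3. These 3 were among the 2.92% of miRNA probes that passed 1.5-fold higher, but the comparison chose them and the share supports nothing. At this time 1org-141 lay on the other side, at -1.19 ± 0.30 or 2.27-fold lower, like 53.2% of all miRNA probes, and the median of all was -0.67. Measured from the array medians, 1org-141 no longer passed, at -0.48 ± 0.47.

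At 96 h in that reading the 3 means nearly coincided, at 4.08 ± 0.84, 4.09 ± 0.80 and 4.10 ± 1.41 (SD, n = 2 arrays), or 16.9-fold, 17.0-fold and 17.1-fold higher. Their order from 200c to 200a is within the spread between arrays. They were among the 33.9% of probes that passed higher, with a median over all probes of 0.65. Probe 1org-141, at 2.86 and -0.60, had no single sign, and its mean of 1.13 ± 2.44 was below 0 without the Foxp3-Cy5 array. Measured from the array medians, the 3 means were 3.44 ± 0.05, 3.45 ± 0.09 and 3.46 ± 0.53.

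**Figure D3:**
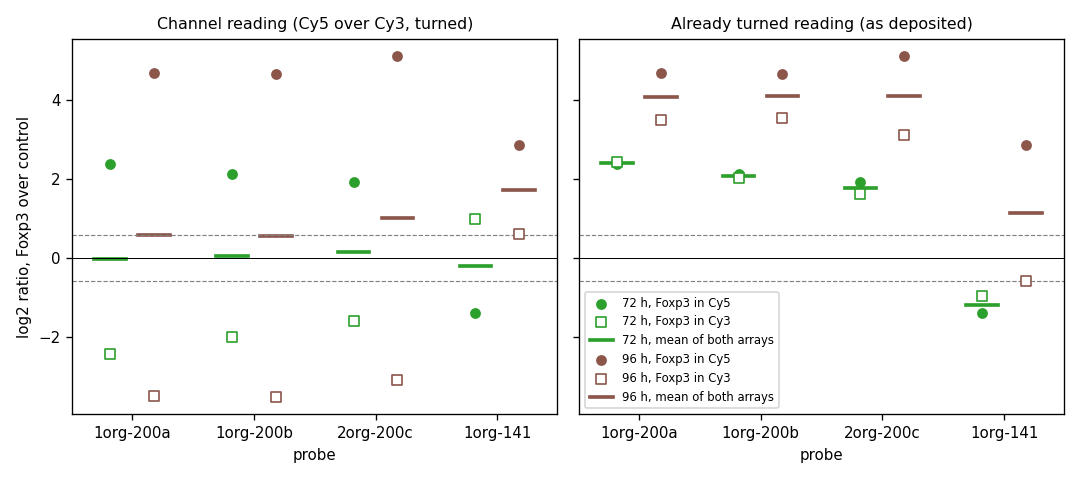
Log2 ratio of Foxp3 over control (y axis) for the 4 family probes (x axis) in the channel reading (left) and the already turned reading (right); filled circles are arrays with Foxp3 in Cy5, open squares arrays with Foxp3 in Cy3, bars the mean of both arrays, and dashed lines 1.5-fold. The arrays of a pair are on opposite sides of 0 for 200a, 200b and 200c in the channel reading and on the same side in the other, while both arrays of 1org-141 at 96 h are above 0 in the channel reading.

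Between the times, all 4 members were higher at 96 h in the already turned reading, by at least 1.5-fold and without overlap between the values of the 2 times. The differences were 1.68 for 1org-200a, 2.02 for 1org-200b, 2.34 for 2org-200c and 2.31 for 1org-141. Of all miRNA probes 67.8% met the same condition, and the median difference of all was 1.37, so that the centre of the arrays moved the same way as the members. From the array medians, the differences were 0.33, 0.67, 0.99 and 0.96, and 1org-200b and 2org-200c still met the condition. With the arrays also scaled to a common spread, those of 1org-200a and 1org-200b turned to -0.71 and -0.32, and that of 2org-200c was 0.04. In the channel reading no member met the condition, against 7.02% of all miRNA probes in either direction. Probe 1org-141 had the largest difference among the members in that reading, 1.94, 9th of 171, and met the condition when measured from the array medians, at 1.43. The share of all miRNA probes meeting the condition from the array medians was not counted in either reading, so those calls have no background.

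Only 12 of the 171 miRNA probes, 7.02%, were above 0 on all 4 arrays as deposited, and 200a, 200b and 200c were 3 of them. The lowest of the 4 values was 2.36, 2.02 and 1.60 for these, against 0.43 for 1org-99b and 0.41 for 1org-23b, the next in order. By mean absolute difference over the 4 arrays, the probe nearest to the mean profile of the 3 was 1org-99b, at 0.84, with values of 1.69, 0.43, 4.47 and 2.37. Next were 1org-206, the ID of a skeletal muscle miRNA, at 1.28, 2org-224 at 1.78, 1org-30a* at 2.00 and 1org-135 at 2.18. The median of the other probes was 3.00.

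Nearest to 1org-141 were 1org-126, the ID of an endothelial miRNA, at 0.25, 2org-211 at 0.30, 1org-187 and 1org-125b at 0.31 and 1org-144 at 0.34, against a median of 0.87. Like 1org-141, these 5 probes were negative on both 72 h arrays and on the 96 h Foxp3-Cy3 array, and between 2.08 and 2.94 on the 96 h Foxp3-Cy5 array. Probes of other miRNAs thus had nearly the same profile as 1org-141.

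**Figure D4:**
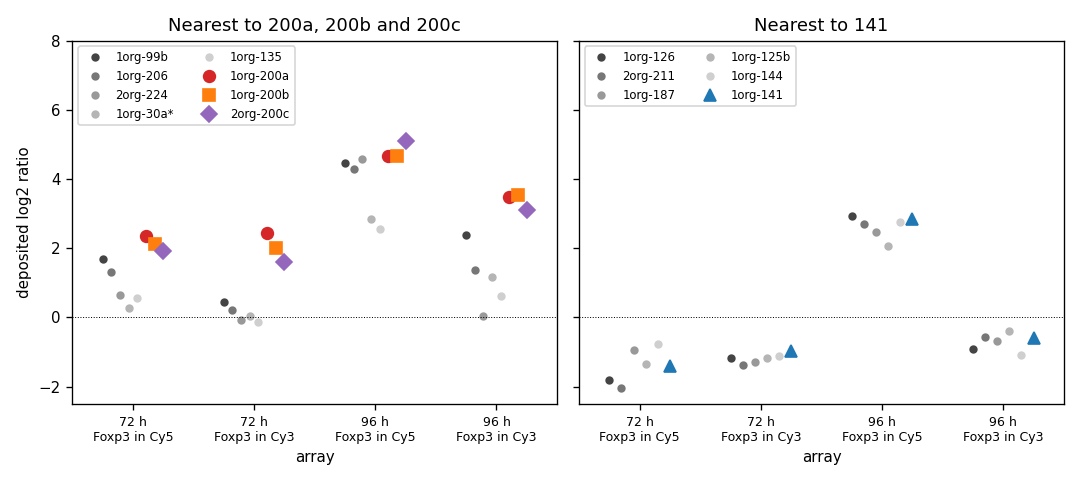
Deposited log2 ratio (y axis) on the 4 arrays (x axis) of the 200a, 200b and 200c probes with the 5 other probes nearest to their mean profile (left), and of 1org-141 with its 5 nearest probes (right); points are offset sideways for visibility. On the left, 3 of the 5 nearest probes come close on the 96 h Foxp3-Cy5 array. That all 5 are lower than the 3 family probes on every array was fixed, since those 3 ranked highest. On the right, the nearest probes lie around 1org-141, as they were chosen to.

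For other miRNAs linked to epithelial cells, the median was near that of all miRNA probes in both readings. Of 10 such IDs 9 had probes, among them 1org-203 and 1org-205, IDs of miRNAs of stratified epithelium. Their deposited values ran from -1.10 to 0.98 and from -1.52 to -0.68 on the 72 h arrays, from 1.05 to 3.93 on the 96 h Foxp3-Cy5 array and from -0.73 to 0.21 on the other. None of the 9 was above 0 on all 4 arrays, against 7.02% of all miRNA probes. That the 9 lay below the 3 high family probes on every array was fixed, since those 3 ranked highest. In the channel reading, 1 of the 9 passed 1.5-fold higher at 72 h (1org-31), against 2.34% of all miRNA probes, and 6 at 96 h, against 46.2%. The medians of the list were 0.13 and 0.82 against 0.07 and 0.81 over all miRNA probes. In the already turned reading, 6 of 9 passed lower at 72 h, against 53.2%, and 3 higher at 96 h, against 33.9%, with medians of -0.86 and 0.70 against -0.67 and 0.65. Measured from the array medians, 2 of the 9 passed higher at 96 h in the channel reading, against 30 of all 171 miRNA probes. In the already turned reading 0 passed at 72 h, against 51 higher and 25 lower of all 171. At 96 h 1 passed higher in that reading, against 18 of all 171. At 72 h in the channel reading, 1 of the 9 still passed higher, against 2 of all 171. The other counts thus followed the centring. As deposited and from the array medians, the median of the list lay within 0.20 of that of all probes in both readings. With the arrays also scaled to a common spread, the difference at 72 h in the already turned reading was -0.25.

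The miR-34 group, p53-induced miRNAs that like the miR-200 family restrain the epithelial-mesenchymal transition, had a probe for each of its 3 IDs. The platform annotation, however, lists 1org-34a as Mir34c and 1org-34c as Mir34a. A further probe, 2org-34, was missed by the list IDs and is not in the counts below. It was at -0.165 and 0.043 on the 72 h arrays and at 0.175 and 1.719 on the 96 h arrays, with Foxp3 in Cy5 first. In the channel reading none passed 1.5-fold at 72 h, and at 96 h 1org-34b passed higher at 1.19, like 46.2% of all miRNA probes, and 1org-34c lower at -0.82, like 5.26%. Measured from the array medians, 0 passed higher and 1 lower at 96 h, against 30 higher and 43 lower of all 171 miRNA probes. In the already turned reading, 1org-34a and 1org-34b passed lower at 72 h, at -0.81 and -1.12, like 53.2% of all miRNA probes, and 1org-34a higher at 96 h, at 1.16, like 33.9%. None of these 3 calls was kept when measured from the array medians, where 1 probe of the group passed higher at 72 h and 1 lower at 96 h. Of all 171 miRNA probes so measured, 51 passed higher at 72 h and 11 lower at 96 h.

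Of 14 IDs of T cell and blood lineage miRNAs 10 had probes. That these 10 lay below the 3 high family probes on every array was fixed, since those 3 ranked highest. The highest values of the 10 were 1.21 for 1org-155 and 0.80 for 2org-142* on the 72 h arrays, and 2.30 for 2org-223 and 1.40 for 1org-155 on the 96 h arrays. A further probe, 1org-181, was missed by the list IDs and is not among the 10. It was at -0.216 and 0.006 on the 72 h arrays and at 1.271 and 0.574 on the 96 h arrays, with Foxp3 in Cy5 first. In the channel reading the medians of the 10 were 0.11 at 72 h and -0.04 at 96 h, against 0.07 and 0.81 over all miRNA probes, with 2 passing higher and 1 lower at 72 h and 2 higher and 3 lower at 96 h. In the already turned reading their medians were 0.02 and 0.52 against -0.67 and 0.65, with 3 passing lower at 72 h and 2 higher at 96 h. The shares of all miRNA probes were 2.34% higher and 5.26% lower at 72 h and 46.2% higher and 5.26% lower at 96 h in the channel reading, and 53.2% lower at 72 h and 33.9% higher at 96 h in the other. Measured from the array medians, the counts were 0 higher and 1 lower at 72 h and 1 higher and 5 lower at 96 h in the channel reading, and 5 higher at 72 h and 1 higher at 96 h in the other. Of all 171 miRNA probes so measured, 2 passed higher and 6 lower at 72 h in the channel reading. At 96 h in that reading 30 passed higher and 43 lower. In the already turned reading 51 of the 171 passed higher at 72 h and 18 at 96 h. Ratios cannot show that these markers of the labelled cells were present, so the cell type was not checked by level.

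Control RNAs give the values of probes that target no miRNA. The 7 control probes for small nuclear RNAs and tRNAs lay between -1.73 and 0.45 and between -1.49 and -0.25 on the 72 h arrays, and between 0.12 and 2.04 and between -1.38 and 1.30 on the 96 h arrays. None of them reached 200a, 200b or 200c, which were chosen because they stood out in these values, so this supports nothing. Measured from the U6 and tRNA probes, the already turned means of 200a, 200b and 200c were 2.65, 2.33 and 2.02 at the earlier time and 3.52, 3.53 and 3.54 at the later. The 3 probes were positive as deposited whichever RNA was in Cy5. In the channel reading, dye and probe then move together in their values. In the already turned reading, the same values are higher with Foxp3 under either dye. The part of the dye was not tested.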

How the data were processed

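Per the labels, 4 microRNA arrays of 2 colours compared Foxp3-transduced with control T cells, a dye-swap pair at 72 h and another at 96 h. The authors' deposited value table gives 1 value per probe and array, taken here as log2 ratios of the channels. The scanner, background correction, normalization, direction and log base are not given in the sources used here. Base 10 would exceed the largest log10 ratio of a 16-bit scanner, 4.82, while natural logs are possible, in which case each fold is larger.

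Values were read with pandas 2.3.3 in Python 3.11.15. The arrays of a time point were taken to carry the same RNAs and were averaged. A probe passed when this mean was at least 1.5-fold in size with 1 sign on both arrays. Alternatives were centring on the miRNA medians or on the 5 U6 and tRNA probes, scaling, natural logs, a 2-fold threshold and each array left out. The turning and counting were tested on simulated data. No test was run, since the members and lists were chosen with earlier results of these data known. Named probes were the family, the 5 nearest to the mean profile of 200a, 200b and 200c and to 1org-141 (planned with miR-429), the 3 highest others on each array, and list members matched by ID. The probes 1org-1b, 1org-1d, 1org-133, 2org-34 and 1org-181, which the list IDs missed, are also named. The number of arrays limits the precision.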

Additional observations from a re-analysis of the deposited data

How the results depend on the processing

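The counts of members were the same or within 1.5 times after centring arrays on the median miRNA probe or on the U6 and tRNA probes, with natural logs and with a 2-fold threshold. The exception was the leaving out of arrays in the channel reading, where a time point is then read from 1 array. The count past 1.5-fold at 72 h rose from 0 to 4 without either array (4 to 4), with 3 higher and 1 lower without replicate 2 and 1 higher and 3 lower without replicate 1. At 96 h it rose from 1 to 4 (4 to 4), with 1 higher and 3 lower without replicate 1 and 4 higher without replicate 2. Without 1org-141, a choice made after seeing the data, the 96 h count was 0. With each array centred and scaled, the difference of 96 h minus 72 h in the already turned reading turned to -0.71 for 1org-200a and -0.32 for 1org-200b. Of 72 member values under centring or scaling, 53 moved by less than the SD between arrays, 17 moved by more with the same sign, and these 2 changed sign from a called value. Of the 53, 10 also changed sign, all of them means or differences of 200a, 200b or 200c in the channel reading, which were not called. For example, the 96 h means of 1org-200a and 1org-200b were -0.03 and -0.06 after centring on the median miRNA probe. With 1 array left out, 50 member values kept their sign and 14 changed it, none of these 14 being called. No paired analysis was possible because no test was run and the arrays of a time point were taken to share their RNAs. Signal over background was not analysed here, so weak probes could not be set apart.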

Other observations

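Some markers of other tissues were looked at by probe ID. The skeletal muscle miRNA probe 1org-206 was above 0 on all 4 arrays as deposited, at 1.32 and 0.23 at 72 h and 4.30 and 1.36 at 96 h, with Foxp3 in Cy5 first. The muscle miRNA probes 1org-1b, 1org-1d and 1org-133, which the planned IDs missed, did not share this. They were below 0 on both 72 h arrays and on the 96 h Foxp3-Cy3 array. On the 96 h Foxp3-Cy5 array they were at 1.35, 1.33 and 1.38. The liver miRNA probe 1org-122a was at -1.62, -1.82, 0.09 and -1.68, in the order of arrays given for 1org-206. The neural miRNA probes 1org-124a and 1org-9 were both below 0 on the 72 h arrays and at 2.05 and 2.09 on the 96 h Foxp3-Cy5 array, against 0.11 and -0.46 on the 96 h Foxp3-Cy3 array. These values carry no test.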
